A study of Mus musculus with 8 samples.

Results

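The comparison described here is that of the diabetic group with the control group on day 1 after wounding, in immune cells taken from skin wounds of mice and read by single-cell RNA sequencing. Its members were the cells of 2 libraries, kept when a barcode held over 200 genes other than mitochondrial ones and under 20% mitochondrial UMIs. This left 4757 cells of 5256 barcodes in the diabetic library and 4412 of 4609 in the control library, together 9169 of the 35158 cells kept in the 8 libraries of the series. The diabetic group were male C57BL/6J mice given streptozotocin (STZ, a toxin of pancreatic beta cells) at 120 mg/kg when 4 weeks old, after fasting for 12 h, with a blood glucose of at least 16.5 mmol/L after 7 days. The control group were male C57BL/6J mice without STZ, and both groups received full-thickness wounds on the back. Cells positive for CD45, the surface protein of white blood cells, were sorted from wounds of 5 mice pooled into each library, so the mice of a group cannot be told apart. STZ leaves a mouse short of insulin from an early age, and the model is not that of the obese or insulin-resistant animal.

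The diabetic library held 19552414 UMIs and the control library 19236522, with medians of 2965 and 3045 UMIs per cell kept. Single cells are not replicates of a condition, and with 1 library on each side no test was made and no p-value is given. Every difference is a ratio of levels, UMIs of a gene per 1000000 UMIs (CPM), summed over the cells of a population, with the diabetic level divided by that of the control group. The 95% interval after a ratio covers counting error only, and nothing is known of the spread between mice or between libraries. A gene was read as higher or lower when the ratio was at least 2 or at most 0.5, among genes with at least 100 UMIs over both libraries. The cells are numbered in the tables without their barcode sequences, so barcodes shared between libraries could not be counted, and 0 cells had the same profile in 2 libraries.

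In the first days of a skin wound, neutrophils leave the blood first and are followed by monocytes, which turn into macrophages within the tissue. Neutrophils carry antimicrobial proteins in granules that are filled in the bone marrow, and the mRNAs of granule proteins are most abundant in young cells of that lineage. Within the wound they make cytokines and chemokines such as interleukin-1 and the ligands of CXCR2. Monocytes and early macrophages of wounds are known for osteopontin and matrix genes, and dendritic cells for MHC class II molecules with which they present antigen.

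Classes of cells were named from the markers of clusters built over all 8 libraries. Neutrophil-like cells were 2447 cells or 51.4% (50.01 to 52.87, exact binomial 95% interval) of the diabetic library and 2650 or 60.1% (58.6 to 61.5) of the control library. Monocyte-like cells were 35.99% (34.6 to 37.4) and 29.5% (28.2 to 30.9), with 1712 and 1303 cells. Dendritic-like cells were 4.29% (3.73 to 4.90) and 2.47% (2.03 to 2.97), with 204 and 109 cells. Thus neutrophil-like cells were a smaller share and monocyte-like and dendritic-like cells a larger share of the diabetic than of the control library. T cell-like cells were 2.12% (1.73 to 2.57) and 2.24% (1.83 to 2.73), with 101 and 99 cells. The intervals cover counting error within a library and say nothing of the spread between mice or libraries. These are shares of sorted cells and not numbers in the tissue, and whether dissociation or sorting differed between the groups was not tested.

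The markers were most abundant in the classes named for them. Of the 10 neutrophil markers, which include S100a8, S100a9, Csf3r and Cxcr2, the summed level in neutrophil-like cells was 70701 CPM in the diabetic and 58739 CPM in the control library, against 4751 and 4431 CPM in monocyte-like cells. Summed levels of the 10 monocyte markers in monocyte-like cells were 10143 and 10462 CPM, against 1569 and 1130 CPM in neutrophil-like cells. The 13 dendritic markers reached 34517 and 37041 CPM in dendritic-like cells, and the 11 T cell markers 7657 and 7639 CPM in T cell-like cells against 42.0 and 37.7 CPM in monocyte-like cells. No marker of its own list was at 0 in any of these classes. B cell and erythroid markers were at 0 in T cell-like cells of both libraries.

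The median depth was 2579 and 2725.5 UMIs in neutrophil-like cells of the diabetic and the control library, 6652.5 and 6677 in dendritic-like cells, and 3594 and 3464 in T cell-like cells. Monocyte-like cells stood apart, with 5707.5 UMIs in the diabetic and 7394 in the control library. In the neutrophil class the largest cluster of the diabetic library was led by Ngp, Retnlg and Wfdc21, and the largest of the control library by Il23a, Il1a and Ccl3. In the monocyte class a cluster with Ppbp and Serpinb2 among its leading genes was the largest in both, with median depths of 2744 and 6705 UMIs in its cells. In the dendritic class the cluster led by Cd209a was the largest in both libraries. Part of each difference within a class can therefore lie in the mix of such clusters. For these classes, values with an equal mix are given where they change the call of a gene named by the rule of size. For the other genes, and for all genes in T cell-like cells, no such value was computed.

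Over all immune cells, some genes of the neutrophil lineage, among them Ngp, Stfa2 and Cd177, were higher in the diabetic library. Those of osteopontin, the platelet-type chemokines and interleukin-23 were lower. Of 9149 genes with enough UMIs, 93 (1.02%) were at least 2-fold higher and 33 (0.361%) at least 2-fold lower, and the median log2 ratio was 0.04. Of 25 genes on the granule list 8 were at least 2-fold higher and 0 lower, with a median log2 ratio of 0.74. The 10 neutrophil markers had 0 past 2-fold and 6 above 1, against 57.6% of all genes, with a median of 0.11. Of 12 MHC class II genes 2 were higher (Ciita and H2-DMb1) and 0 lower, with a median of 0.62. Less that of all genes, the MHC class II median was 0.58, and 0.19 when the mix of classes was set equal. In such sums, fewer cells of a type and less RNA per cell cannot be told apart. Ngp, a protein of neutrophil secondary granules, had 10313 UMIs in the diabetic and 750 in the control library, a ratio of 13.6 (12.6 to 14.7). Stfa2, a cysteine protease inhibitor of the stefin A family, had 3696 and 464 UMIs and a ratio of 7.87 (7.14 to 8.69). Cd177, a surface protein of neutrophils, had 3731 and 831 UMIs and a ratio of 4.44 (4.11 to 4.79). All of these are genes of the neutrophil lineage, as are Camp, the precursor of the cathelicidin peptide, with a ratio of 5.21 (3.40 to 8.25), and lactoferrin (Ltf) with 4.21 (3.15 to 5.72). Orm1, an acute-phase glycoprotein, had 120 and 10 UMIs and a ratio of 11.9 (6.23 to 25.4). Ace, the angiotensin-converting enzyme, had 93 and 14 UMIs, and U90926 103 and 19. The stefin A genes are near-identical copies, so how UMIs were divided among Stfa2, Stfa2l1 and BC100530 is uncertain.

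A further group of genes at the top of the list came from very few cells. Prg4, which encodes lubricin, had 726 UMIs in the diabetic and 30 in the control library, a ratio of 23.9 (16.6 to 35.7), but 83.9% of the diabetic UMIs lay in 1 cell. Without the 5 cells of each library that held the most UMIs of the gene, the ratio was 3.77. Decorin (Dcn), with 454 and 62 UMIs and a ratio of 7.23 (5.54 to 9.59), was at 1.98, just within 2-fold, without those cells. Col1a2, a chain of collagen I, had 270 and 37 UMIs and a ratio of 7.21 (5.10 to 10.5), and 60.4% of the diabetic UMIs lay in 1 cell. Without the 5 cells with most UMIs its ratio was 2.20. These are genes of fibroblasts, and 2 cells of the diabetic and 1 cell of the control library were fibroblast-like. Serpina3n, a serine protease inhibitor, had 89 and 13 UMIs, with 47.2% of the former in 1 cell. Its ratio of 6.76 was 3.36 without such cells.

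On the lower side, Ppbp, the precursor of the chemokine CXCL7, had 3741 UMIs in the diabetic and 12433 in the control library, a ratio of 0.297 (0.287 to 0.308). Pf4, or platelet factor 4, had 8803 and 20332 UMIs and a ratio of 0.428 (0.417 to 0.439). Both are known from platelets and are also made by monocytes and macrophages. Osteopontin (Spp1) had 32967 and 68095 UMIs and a ratio of 0.478 (0.472 to 0.485). Lipoprotein lipase (Lpl) had a ratio of 0.297 (0.275 to 0.321), the eosinophil chemokine Ccl24 0.364 (0.321 to 0.412), and Il23a, the subunit that is particular to interleukin-23, 0.385 (0.359 to 0.414). Dll4, a Notch ligand, had 43 and 131 UMIs, the integrin gene Itga6 88 and 234, and the co-receptor gene neuropilin 1 (Nrp1) 405 and 930, all past 2-fold. Cbr2, a carbonyl reductase of tissue macrophages, had a ratio of 0.449 (0.417 to 0.484). Eomes, a transcription factor gene of natural killer cells, had 31 and 142 UMIs, of which 25 and 128 lay in NK cell-like cells, 21 in the diabetic and 41 in the control library.

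**Figure D1:**
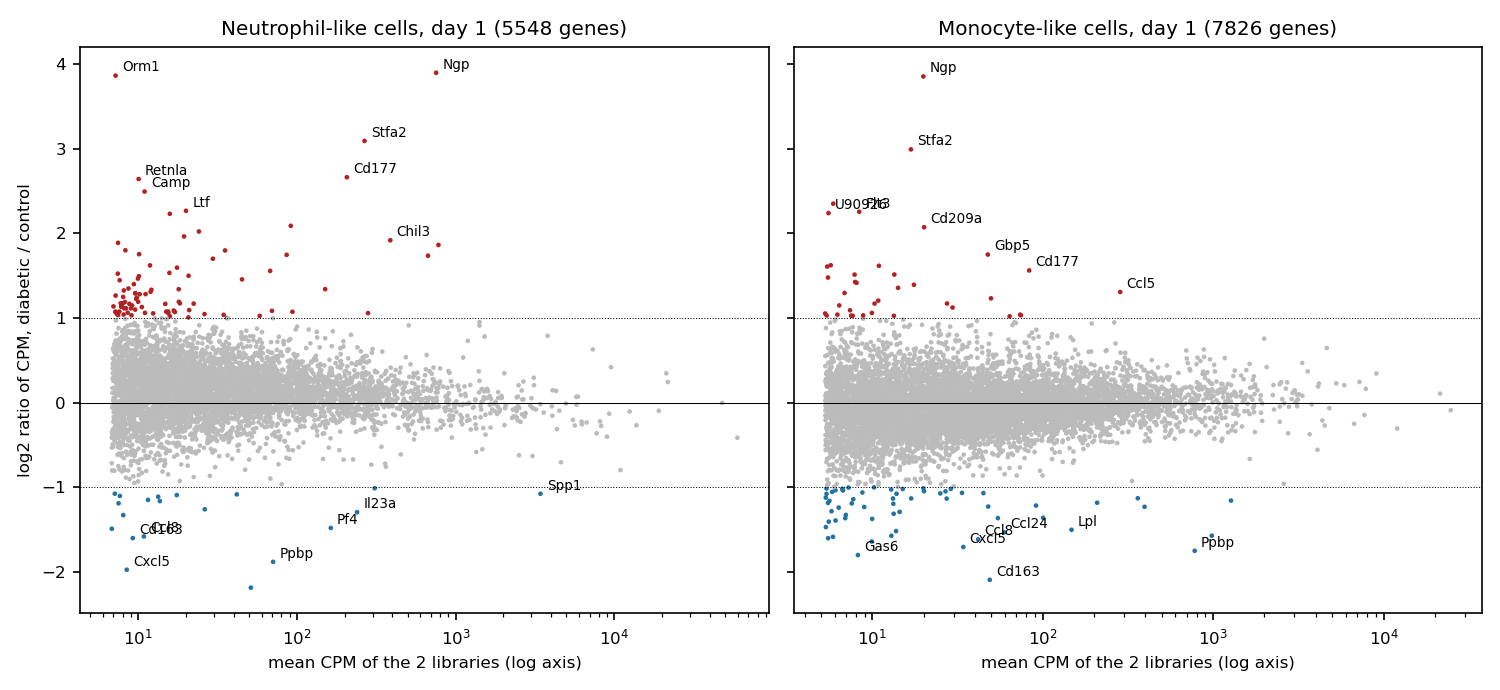
Ratio of CPM, diabetic over control, against the level of each gene in neutrophil-like and monocyte-like cells on day 1 (both axes logarithmic), for genes with at least 100 UMIs. Most genes lie near a ratio of 1, and Ngp, Stfa2 and Cd177 stand above and Ppbp, and Il23a in neutrophil-like cells, below the lines that mark 2-fold.

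In neutrophil-like cells genes of the granule list, which also holds the stefin A genes Stfa2 and BC100530, led the difference. Of 5548 genes, 90 (1.62%) were at least 2-fold higher and 20 (0.360%) at least 2-fold lower, and the median log2 ratio of all genes was 0.13, so small ratios are to be read against that shift. Of 28 genes on the granule list 24 had enough UMIs, 12 were at least 2-fold higher and 0 lower, and 22 were above 1, against 68.3% of all genes, with a median log2 ratio of 0.99. Ngp had 9845 UMIs in 607 cells of the diabetic library and 716 UMIs in 201 cells of the control library, or 1414 and 94.9 CPM, a ratio of 14.9 (13.8 to 16.1). Mmp8, the neutrophil collagenase, had 8525 and 2539 UMIs and a ratio of 3.64 (3.48 to 3.80). The collagenase was thus higher from many cells, 889 and 661, and no single cell held over 1.58% of its UMIs.

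The other genes of the granule list that were higher differ in abundance and in role. Stfa2 had 3328 and 423 UMIs and a ratio of 8.52 (7.70 to 9.45), Cd177 2484 and 425 UMIs and a ratio of 6.33 (5.71 to 7.03), and Chil3, the chitinase-like protein Ym1, 4274 and 1225 UMIs and a ratio of 3.78 (3.55 to 4.03). The antimicrobial genes Camp, with 130 and 25 UMIs, and Ltf, with 231 and 52, had ratios of 5.63 (3.65 to 9.02) and 4.81 (3.55 to 6.63). These antimicrobial genes were seen in few cells, 54 and 72 of the 2447 in the diabetic library. Past 2-fold were also BC100530 at 4.25, the integrin gene Itgb2l at 3.90, annexin A1 (Anxa1) at 2.08, the membrane-bound metalloproteinase Mmp25 at 2.05 and olfactomedin 4 (Olfm4) at 2.04. Genes of the list that stayed within 2-fold included Wfdc21 at 1.88, lipocalin 2 (Lcn2) at 1.73 and Retnlg at 1.55, all from many UMIs in each library. Gelatinase B (Mmp9) at 0.942 (0.910 to 0.974) and Ly6g at 0.931 (0.841 to 1.03) were not above 1. The granule list was therefore not uniform, with its gelatinase at a like level in both libraries.

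The promoters of a few of these genes are shown because the genes were higher together, as RefSeq gives them on GRCm38.p6 from 250 bases before to 50 bases after the start of the transcript, each 5′ to 3′ on the strand of its gene. Ngp starts within chr9:110419558-110419857 on the plus strand, Ltf within chr9:111019042-111019341 on the plus strand, Mmp8 within chr9:7558179-7558478 on the plus strand and Camp within chr9:109849407-109849706 on the minus strand. Capitals mark matches to TTGCNNAA or, on the other strand, TTNNGCAA, letters often used for sites of the C/EBP factors of myeloid cells.
Ngp: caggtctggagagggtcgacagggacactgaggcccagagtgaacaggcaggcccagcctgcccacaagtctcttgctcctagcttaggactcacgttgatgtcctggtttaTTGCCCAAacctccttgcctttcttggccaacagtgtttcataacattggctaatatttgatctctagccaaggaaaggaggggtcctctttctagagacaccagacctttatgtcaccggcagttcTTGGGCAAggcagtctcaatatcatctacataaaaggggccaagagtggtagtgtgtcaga
Ltf: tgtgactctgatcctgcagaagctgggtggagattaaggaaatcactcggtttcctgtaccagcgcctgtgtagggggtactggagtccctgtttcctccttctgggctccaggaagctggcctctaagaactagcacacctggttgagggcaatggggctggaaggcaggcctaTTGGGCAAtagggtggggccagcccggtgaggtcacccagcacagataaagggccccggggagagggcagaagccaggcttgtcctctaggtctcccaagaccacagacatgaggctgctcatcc
Mmp8: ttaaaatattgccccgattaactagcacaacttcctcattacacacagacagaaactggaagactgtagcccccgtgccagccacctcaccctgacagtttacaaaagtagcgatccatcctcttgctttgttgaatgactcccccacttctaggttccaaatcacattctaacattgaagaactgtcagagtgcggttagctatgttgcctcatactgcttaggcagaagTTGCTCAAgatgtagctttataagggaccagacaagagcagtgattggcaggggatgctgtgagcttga
Camp: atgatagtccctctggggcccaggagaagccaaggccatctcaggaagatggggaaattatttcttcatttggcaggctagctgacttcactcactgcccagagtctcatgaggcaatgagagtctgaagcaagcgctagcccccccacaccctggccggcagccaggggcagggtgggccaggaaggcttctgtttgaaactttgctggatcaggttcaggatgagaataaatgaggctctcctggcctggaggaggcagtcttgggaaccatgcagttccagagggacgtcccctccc
The letters occur 2 times in the window of Ngp, starting at -138 and -11 from the start of the transcript, and once in those of Ltf, at -75, and Mmp8, at -19, and do not occur in that of Camp. Of the 12 genes of the granule list that were at least 2-fold higher, 11 had a promoter entry. Of these genes 4 held a match (Anxa1, Ltf, Mmp8 and Ngp), beside 10.8% of 32851 promoters. The former is a count of genes and the latter of promoter entries. A match is a description of the letters and not a binding site.

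Beside the granule genes, Orm1 had 94 and 7 UMIs in neutrophil-like cells and a ratio of 14.5 (6.79 to 37.2). Retnla, known from alternatively activated macrophages, had 121 and 21 UMIs in 12 and 16 cells and a ratio of 6.24 (3.90 to 10.4). Of the diabetic UMIs 54.5% lay in 1 cell. Without the 5 cells with most UMIs the ratio was 0.689, from few UMIs. The S100 genes, among which S100a8 and S100a9 form calprotectin, were within 2-fold, and 7 of 7 were above 1, against 68.3% of all genes, with a median log2 ratio of 0.29 against 0.13. S100a8 had a ratio of 1.27 (1.26 to 1.28) and S100a9 of 1.19 (1.18 to 1.19). The mast cell genes Mcpt4 and Cpa3 were also past 2-fold, at 3.02 and 2.17, from 184 and 66 and from 80 and 40 UMIs. The 7 mast cell markers summed to 62.0 CPM in the diabetic and 37.4 CPM in the control neutrophil-like cells, with Ms4a2 at 0 in both, and the part of free RNA in these values was not tested.

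Among the genes that were lower in diabetic neutrophil-like cells were Il23a, Spp1, Ppbp and Pf4. Il23a had 967 UMIs in 306 diabetic cells and 2567 UMIs in 658 control cells, a ratio of 0.408 (0.379 to 0.439). Spp1 had 15359 and 35065 UMIs and a ratio of 0.474 (0.465 to 0.484). With an equal mix of clusters the ratio of Il23a was 0.593 and that of Spp1 0.654, both no longer past 2-fold. Serpinb2, an inhibitor of plasminogen activators, was at 0.496 (0.466 to 0.529). Other cytokines that neutrophils make in wounds lay below 1 and within 2-fold, with Cxcl3 at 0.614 (0.604 to 0.624), Il1a at 0.646 (0.634 to 0.659), Cxcl2 at 0.750 (0.747 to 0.754), Tnf at 0.805 (0.793 to 0.818) and Ccl3 at 0.831 (0.824 to 0.839). Il1b, at 0.930 (0.921 to 0.939), came closest to an equal level. These cytokines include leading genes of the largest cluster of control neutrophils. As lists, the interleukin-1 family had 0 of 13 and the TNF and NF-kappaB response 0 of 25 genes past 2-fold in these cells. Such counts are near those of all genes, of which 1.62% were higher and 0.360% lower. Above 1 were 6 of 13 and 10 of 25, against 68.3% of all genes. Their median log2 ratios less that of all genes were -0.233 and -0.156. The 10 monocyte markers were not lower as a list, with 7 above 1, against 68.3% of all genes, and Chil3 past 2-fold on the higher side.

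Ppbp, with 211 and 841 UMIs, and Pf4, with 602 and 1818, had ratios of 0.272 (0.233 to 0.316) and 0.359 (0.327 to 0.393) in neutrophil-like cells. A few rarer genes of macrophages or stroma were also lower, Cxcl5 with 24 and 102 UMIs, Ccl8 with 38 and 123, and Cd163, the scavenger receptor for haemoglobin, with 32 and 105. For Cxcl5 63.7% of the control UMIs lay in 1 cell, the ratio was 0.722 without the 5 cells with most UMIs, and when the day 1 libraries were clustered alone it turned to 9.28. Pf4 was at 0.614 and Ccl8 at 0.776 when cells were named singly by marker scores, both within 2-fold. The 12 macrophage markers summed to 591 CPM in the diabetic and 829 CPM in the control neutrophil-like cells, with 0 of them at 0. Of the 12, 4 were at least 2-fold lower and 4 above 1, against 68.3% of all genes. Pf4 is among the lower ones and makes up much of the difference in the sum. Since Ppbp and Pf4 were also lower in the monocyte-like cells of the same library, free RNA can give such values, and its part was not tested.

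Shares of cells with a UMI, after each cell was thinned to 1000 UMIs so that depth was equal, gave the same order. Ngp was seen in 17.0% of 2268 diabetic and 4.16% of 2503 control neutrophil-like cells, while it was seen in 7.29% of 96 and 0% of 97 T cell-like cells, which should lack it. Unthinned, the shares of neutrophil-like cells were 24.8% and 7.58%. Stfa2 was seen in 12.4% and 1.76% of neutrophil-like cells and in 2.08% and 0% of T cell-like cells, and Cd177 in 12.7% and 4.00% against 3.13% and 1.03%. In the diabetic library all 3 were thus above the share in T cells, and the background of Ngp was itself higher in the diabetic library. In the control library Stfa2, at 1.76%, lay below the share of 3 in 97 cells, 3.09%, which was taken as the bound where 0 cells had a UMI. Il23a was seen in 7.41% and 14.9% of neutrophil-like cells and in 0% of T cell-like cells of both libraries. Ppbp, at 1.94% and 7.11%, and Pf4, at 5.86% and 13.1%, lay at or below the T cell-like shares of 4.17% and 11.3%, and 6.25% and 11.3%, except Pf4 in the control library. The shares of both genes in neutrophil-like cells were thus near those in T cell-like cells, of which there were under 100 in each library.

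**Figure D2:**
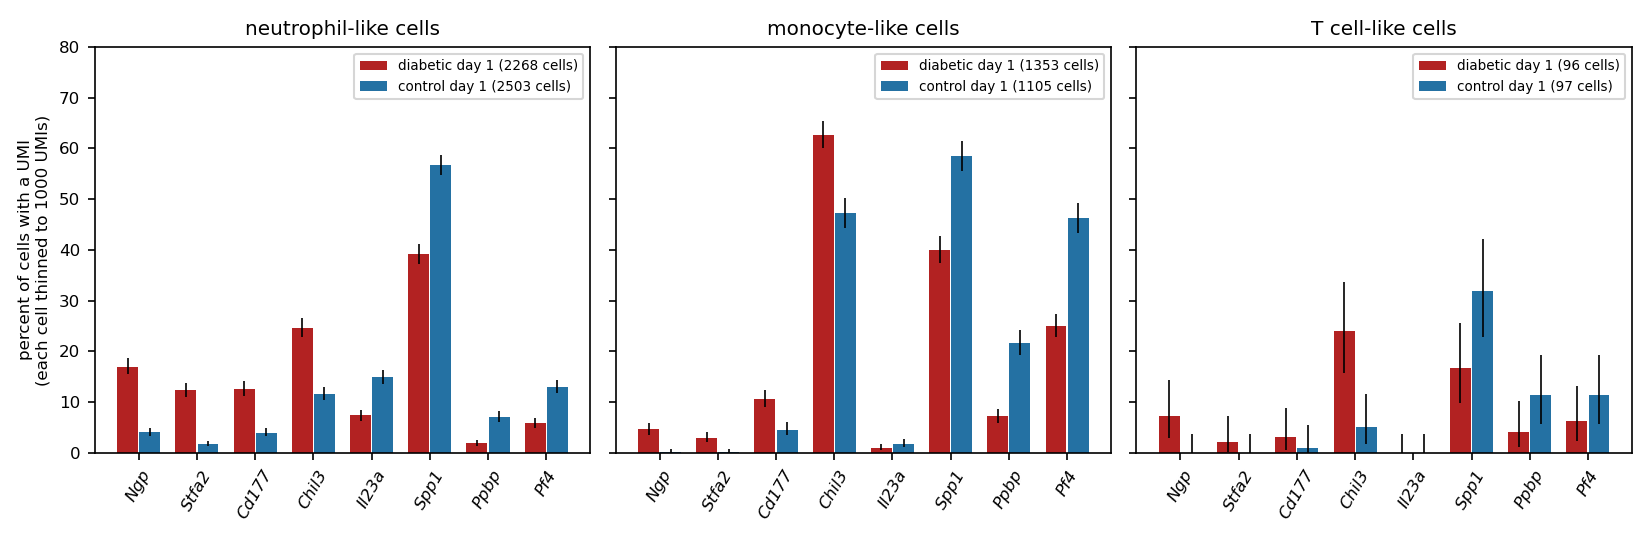
Percent of cells with at least 1 UMI of a gene on day 1 after each cell was thinned to 1000 UMIs, in the diabetic and the control library, with exact binomial 95% intervals. T cell-like cells, which should lack the genes of neutrophils and monocytes, show the background.

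Interferon-stimulated genes were shifted upwards as a list without large single ratios. In neutrophil-like cells 2 of 48 were at least 2-fold higher and 0 lower, 42 were above 1, against 68.3% of all genes, and the median log2 ratio was 0.31. The 2 genes were Gbp5, a guanylate-binding protein, with 177 and 85 UMIs and a ratio of 2.26 (1.73 to 2.96), and Igtp, an immunity-related GTPase, with 143 and 69 UMIs and a ratio of 2.24 (1.67 to 3.04). Genes of the response to low oxygen were shifted the other way, with 4 of 17 above 1 and a median log2 ratio of -0.45, and 0 past 2-fold. Among them were P4ha1, a prolyl hydroxylase for collagen, at 0.628, Vegfa, a growth factor of vessels, at 0.678, and Ero1l, an oxidase of the endoplasmic reticulum, at 0.694. Hif1a, the transcription factor gene of that response, was at 1.28 (1.22 to 1.35). Of nuclear genes for oxidative phosphorylation 0 of 40 were past 2-fold, and their median log2 ratio of 0.19 lay near that of all genes. Of all genes in these cells 1.62% were at least 2-fold higher and 0.360% lower, so the counts of 0 are near that share.

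**Figure D3:**
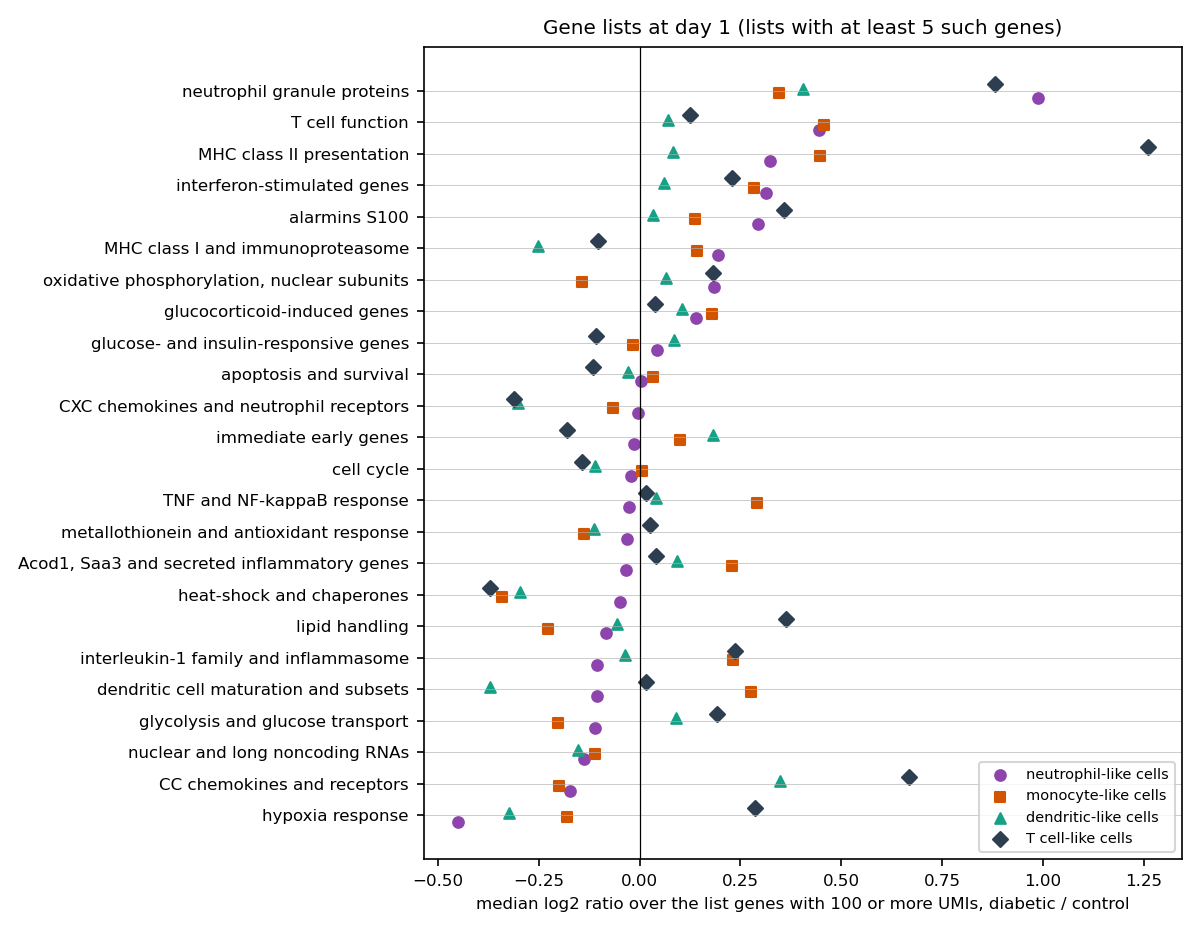
Median log2 ratio of each gene list on day 1 (members with at least 100 UMIs, lists with at least 5 such genes), diabetic over control, by population. The granule list stands highest among the lists in neutrophil-like cells, at 0.99, and the hypoxia list in the same cells lies at -0.45.

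In monocyte-like cells some genes of tissue macrophages and the platelet-type chemokines were lower in the diabetic library, and Gbp5, Ccl5 and a few genes of dendritic cells were higher. Of the CC chemokines and their receptors 1 of 16 was at least 2-fold higher and 3 lower, and of the CXC chemokines and neutrophil receptors 0 of 13 were higher and 2 lower. Of 7826 genes, 38 (0.486%) were at least 2-fold higher and 61 (0.779%) at least 2-fold lower, with a median log2 ratio of -0.05. Ppbp had 3405 UMIs in the diabetic and 11180 in the control library and a ratio of 0.297 (0.286 to 0.309), and Pf4 7513 and 16354 UMIs and a ratio of 0.449 (0.437 to 0.461). With an equal mix of clusters Ppbp was at 0.383, still past 2-fold. Spp1, at 0.515 (0.505 to 0.524), was just within 2-fold. Thinned to 1000 UMIs, Ppbp was seen in 7.24% of 1353 diabetic and 21.7% of 1105 control monocyte-like cells. Its T cell-like shares were 4.17% and 11.3%, lower than in monocyte-like cells of both libraries but with overlapping binomial intervals.

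Of the 12 macrophage markers, 5 were at least 2-fold lower in monocyte-like cells (C1qa, C1qb, C1qc, Cd163 and Pf4) and 0 higher. Above 1 were 3 of the 12, against 41.9% of all genes. The summed level of the 12 was 4208 CPM in the diabetic and 5483 CPM in the control library. Pf4, given above, makes up much of that difference. Cd163 had 177 and 737 UMIs and a ratio of 0.235 (0.198 to 0.277). The 3 chains of complement C1q were lower alike, C1qa at 0.431 (0.388 to 0.478), C1qb at 0.426 (0.406 to 0.448) and C1qc at 0.441 (0.412 to 0.472). Mertk, a receptor for dying cells, had 46 and 140 UMIs, and its ligand gene Gas6 35 and 119 UMIs with a ratio of 0.287 (0.191 to 0.422). A receptor of this uptake route and its ligand were thus both low in number and lower in the diabetic library. Among secreted factors, Ccl24 had 291 and 822 UMIs and a ratio of 0.346 (0.301 to 0.396), Ccl8 196 and 586 UMIs and 0.327 (0.276 to 0.385), and Cxcl5 153 and 487 UMIs and 0.307 (0.254 to 0.369). Lpl had 734 and 2029 UMIs and a ratio of 0.353 (0.324 to 0.385). When the day 1 libraries were clustered alone, Ccl8 was at 0.619, within 2-fold, and Cd163 at 0.484, and the cause was not tested. Cells named macrophage-like were 80 in the diabetic and 96 in the control library.

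Higher in diabetic monocyte-like cells was Gbp5, with 699 and 203 UMIs in 267 and 97 cells and a ratio of 3.36 (2.87 to 3.95). The chemokine Ccl5 had 3868 and 1526 UMIs and a ratio of 2.48 (2.33 to 2.63). Thinned, Gbp5 was seen in 6.95% and 1.99% of these cells and in 3.13% and 3.09% of T cell-like cells, and Ccl5 in 18.2% and 9.59% of monocyte-like cells. T cells can express both genes, so their shares are no measure of background. Genes of dendritic cells were higher too, the lectin gene Cd209a with 310 and 72 UMIs and a ratio of 4.205 (3.24 to 5.51), and the growth factor receptor gene Flt3 with 132 and 27 UMIs and a ratio of 4.77 (3.14 to 7.52). The 13 dendritic markers summed to 2741 CPM in the diabetic and 2001 CPM in the control monocyte-like cells with 0 of them at 0. Dendritic-like cells were also a larger share of the diabetic library, and the part of such cells within the class was not tested. Cd177, with 1185 and 392 UMIs in 467 and 194 cells, had a ratio of 2.95 (2.63 to 3.32), U90926, with 87 and 18 UMIs, a ratio of 4.72 (2.82 to 8.34). Ngp, with 355 and 24 UMIs, and Stfa2, with 285 and 35, had ratios of 14.4 (9.55 to 22.8) and 7.95 (5.59 to 11.6), the same size as in neutrophil-like cells at a far lower level. The largest share of these Ngp UMIs in 1 diabetic cell was 0.845%, spread over 291 cells, and the part of free RNA from neutrophils was not tested.

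Some lists of inflammatory genes were shifted upwards in monocyte-like cells by small ratios, and those of chemokines were not. The CC list had 7 of 16 above 1 and a median log2 ratio of -0.20, and the CXC list 5 of 13 and -0.06. Of 25 genes of the TNF and NF-kappaB response 1 was at least 2-fold higher (Tnip3, at 2.05), 0 were lower and 24 were above 1, against 41.9% of all genes, with a median log2 ratio of 0.29. Tnf was at 1.37 (1.34 to 1.41), Il1b at 1.56 (1.54 to 1.59) and Il6 at 1.77 (1.60 to 1.97). In neutrophil-like cells of the same libraries Tnf and Il1b were below 1, so the cytokines differed in opposite directions in the 2 classes, and that difference was not tested. Interferon-stimulated genes had 2 of 52 at least 2-fold higher (Gbp5 and Ifit3b, at 2.56) and 45 above 1, with a median log2 ratio of 0.28. Ifit3b and Ifit3 are near-identical copies, and Ifit3 was at 1.72. The acute-phase protein gene Saa3, at 1.53, and Acod1, which makes itaconate, at 1.44, were within 2-fold, as was Il10 at 1.45. MHC class II genes had 9 of 9 above 1 and 0 past 2-fold, with H2-Ab1 at 1.43, H2-Aa at 1.37 and their chaperone Cd74 at 1.36. Of all genes in these cells 0.486% were at least 2-fold higher and 0.779% lower.

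Heat-shock and chaperone genes lay lower in the diabetic monocyte-like cells, with 1 of 18 above 1, against 41.9% of all genes, 0 past 2-fold and a median log2 ratio of -0.34. Hsph1 was at 0.591 (0.486 to 0.716) and Hspd1, the mitochondrial chaperonin, at 0.660 (0.588 to 0.741). Nuclear genes for oxidative phosphorylation had 4 of 42 above 1, against the same 41.9%, with a median log2 ratio of -0.14, a small shift beside the -0.05 of all genes, and glycolytic genes had a median of -0.20. The blood monocyte genes Ly6c2, at 0.939 (0.914 to 0.966), and Ccr2, at 1.04 (1.00 to 1.08), were near an equal level.

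The promoter of Gbp5, the interferon-stimulated gene with the largest ratio in monocyte-like cells, lies at chr3:142496684-142496983 on the plus strand (GRCm38.p6, RefSeq). Capitals mark a match, on the other strand, to the interferon-stimulated response element, searched as GAAA, any 2 bases and GAAA on both strands.
Gbp5: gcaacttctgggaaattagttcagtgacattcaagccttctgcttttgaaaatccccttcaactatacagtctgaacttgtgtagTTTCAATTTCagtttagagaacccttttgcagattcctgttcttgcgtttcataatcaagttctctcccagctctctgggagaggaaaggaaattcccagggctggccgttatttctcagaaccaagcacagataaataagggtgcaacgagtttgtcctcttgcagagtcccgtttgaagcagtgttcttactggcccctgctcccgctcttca
The match starts at -165. Of the 57 genes of the interferon list 44 had a promoter entry, and 26 of these held the letters, both strands read. Among all 32851 promoters the share was 3.44%. The former are counts of genes and the latter of promoter entries, so the shares are not like measures.

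**Figure D4:**
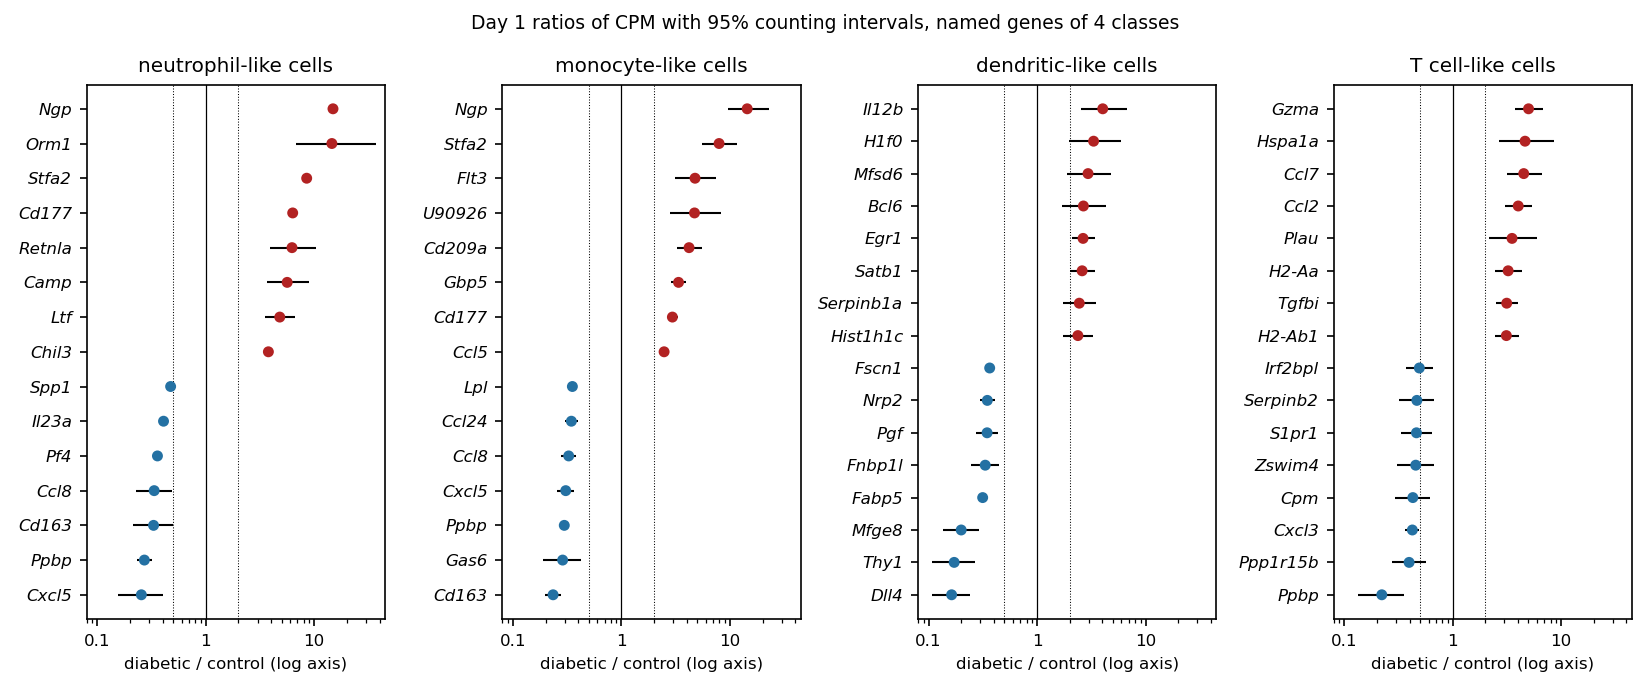
Ratio of CPM on day 1, diabetic over control (logarithmic axis), for the genes named in 4 classes of cells, with 95% counting intervals. Genes of the granule list lie to the right in neutrophil-like cells, and Cd163 and Ppbp to the left in monocyte-like cells.

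In dendritic-like cells 6 of 27 genes of maturation and subsets were at least 2-fold lower in the diabetic library (Cacnb3, Ccl22, Cd200, Fscn1, Mgl2 and Socs2) and 2 were higher (Cd207 and Il12b). Of 3375 genes, 34 (1.01%) were at least 2-fold higher and 37 (1.10%) at least 2-fold lower, with a median log2 ratio of 0.06. The class held a cluster led by Cd209a and a smaller one led by Fscn1 and Ccl22. Fascin (Fscn1), which bundles actin in such cells, had 1399 and 2116 UMIs in 39 and 35 cells and a ratio of 0.366 (0.342 to 0.392). The lipid-binding gene Fabp5 had 532 and 934 UMIs and a ratio of 0.315 (0.283 to 0.351), and the chemokine gene Ccl22 1041 and 1272 UMIs and 0.453 (0.417 to 0.492). With an equal mix of the 2 clusters Fscn1 was at 0.916 and Fabp5 at 0.683, and over all genes 12 in place of 37 were at least 2-fold lower. Dll4, with 33 UMIs in 10 cells and 112 in 20, had a ratio of 0.163 (0.107 to 0.242) and with the equal mix 0.331. Of the 27 genes of maturation and subsets 9 were above 1, against 57.2% of all genes, with a median log2 ratio of -0.37. Less that of all genes, this median was -0.43, and it turned to 0.094 with the equal mix. MHC class II genes had 0 of 12 past 2-fold and a median of 0.08. Ccr7, the receptor that guides these cells to lymph nodes, was at 0.594 (0.535 to 0.660), within 2-fold.

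Further genes named in dendritic-like cells differed in how many cells held them. Placental growth factor (Pgf), with 122 and 195 UMIs, Nrp2, with 249 and 396, and Fnbp1l, with 77 and 128, had ratios of 0.346, 0.348 and 0.333, of which the first stayed past 2-fold with an equal mix, at 0.332, and the other two did not. Thy1 had 28 UMIs in 8 cells and 90 in 6, and its ratio of 0.172 turned to 1.66 without the 5 cells with most UMIs. Mfge8, a bridge protein for dying cells, had 39 and 108 UMIs with 62.0% of the latter in 1 cell, and its ratio of 0.1999 turned to 1.22. For both genes few UMIs were then left, so their direction on day 1 is not settled. Il12b, the shared subunit of interleukin-12 and interleukin-23, had 153 UMIs in 6 diabetic cells and 21 in 1 control cell, and Cd207 had 90 and 20 UMIs from 2 cells in each library. Egr1, an immediate early transcription factor, had 379 and 79 UMIs in 71 and 34 cells and a ratio of 2.66 (2.08 to 3.43), and the chromatin organiser Satb1 334 and 71 UMIs and 2.60 (2.01 to 3.41). The repressor gene Bcl6 was at 2.68 (1.71 to 4.34), Mfsd6 at 2.95 (1.90 to 4.78), the protease inhibitor gene Serpinb1a at 2.45 (1.75 to 3.51), and the linker histone genes H1f0 and Hist1h1c at 3.32 (1.98 to 5.92) and 2.38 (1.74 to 3.31). Egr1, Satb1, Hist1h1c and Mfsd6 were seen in 71, 79, 73 and 65 diabetic cells. Some of these calls were lost: Egr1 was at 1.62 and Satb1 at 1.998 when cells were named singly, Egr1 at 1.945 and Hist1h1c at 1.97 with the day 1 libraries clustered alone, and Serpinb1a at 1.96 without the 5 cells with most UMIs.

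In T cell-like cells 3 of 24 genes of T cell function (Gata3, Gzma and Gzmb) were at least 2-fold higher in the diabetic library and 0 lower, and 12 were above 1, against 44.6% of all genes. Of 1716 genes, 34 (1.98%) were at least 2-fold higher and 13 (0.758%) at least 2-fold lower, with a median log2 ratio of -0.05. Cd3e, a chain of the T cell receptor complex, had 257 and 237 UMIs and a ratio of 0.869 (0.726 to 1.04), and Trdc, of the gamma-delta receptor, 302 and 319 UMIs and 0.759 (0.646 to 0.891). Il17a was at 0.564 (0.409 to 0.776), from 15 and 22 cells. Granzyme A (Gzma), a protease of cytotoxic lymphocytes, had 331 UMIs in 14 diabetic cells and 53 in 12 control cells, a ratio of 5.00 (3.74 to 6.82). Gzma was thus seen in similar numbers of cells, and 30.5% of its diabetic UMIs lay in 1 cell. Granzyme B (Gzmb) was at 2.05 (1.77 to 2.38) and 1.03 without the 5 cells with most UMIs, and Gata3, a transcription factor gene of type 2 cells, had 76 and 27 UMIs and a ratio of 2.26 (1.44 to 3.64).

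Of 5 MHC class II genes with enough UMIs in T cell-like cells, 4 were at least 2-fold higher. H2-Aa had 243 and 60 UMIs and H2-Ab1 312 and 80, and 64.6% and 59.3% of the diabetic UMIs lay in 1 cell. Without the 5 cells with most UMIs both were within 2-fold, at 1.72 and 1.95. The monocyte genes Tgfbi, at 3.15 (2.52 to 3.97), Ccl2, at 4.02 (3.03 to 5.41), Ccl7, at 4.52 (3.16 to 6.63), and Plau, at 3.53 (2.15 to 6.05), were higher as well. The 10 monocyte markers summed to 3861 CPM in the diabetic and 2417 CPM in the control T cell-like cells and the 13 dendritic markers to 1643 and 647 CPM, with 0 and 1 dendritic marker at 0, and the part of other cells or free RNA was not tested. Without the 5 cells with most UMIs Ccl7 was at 1.31 and Plau at 1.46. With the day 1 libraries clustered alone Tgfbi was at 1.905, Ccl2 at 1.505 and Ccl7 at 1.04, all within 2-fold. Hspa1a, a heat-shock gene with the near-identical copy Hspa1b, had 87 and 15 UMIs in 7 and 9 cells. Of the former, 91.95% lay in 1 cell. Without the 5 cells with most UMIs its ratio of 4.65 turned to 0.401, from too few UMIs to give a direction.

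Lower in diabetic T cell-like cells were Ppbp, with 23 and 83 UMIs, and Cxcl3, with 282 and 532, at 0.222 (0.134 to 0.356) and 0.425 (0.366 to 0.492). For both, over 50% of the control UMIs lay in 1 cell, and Cxcl3 was at 0.970 without the 5 cells with most UMIs. Serpinb2, at 0.467 from 14 and 12 cells, had 84.5% of its control UMIs in 1 cell. Without the 5 cells with most UMIs it was at 1.03, from few UMIs. Also lower were Ppp1r15b, a regulator of the stress response to unfolded proteins, with 47 and 95 UMIs in 32 and 42 cells and a ratio of 0.396 (0.273 to 0.568), and S1pr1, the receptor that guides lymphocytes out of tissue, with 59 and 102 UMIs in 25 and 33 cells and 0.464 (0.331 to 0.645). Carboxypeptidase M (Cpm) was at 0.429, Zswim4 at 0.456 (0.534 when cells were named singly) and Irf2bpl at 0.493, each from over 40 UMIs in both libraries. When the day 1 libraries were clustered alone, Ppp1r15b was at 0.512, S1pr1 at 0.527 and Irf2bpl at 0.541, all within 2-fold.

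The libraries of days 3, 5 and 7, which were not used to choose these genes, gave no common course of the genes of the granule list. Ngp in neutrophil-like cells was at 14.9 on day 1, 2.35 (2.12 to 2.60) on day 3, 0.0833 (0.0591 to 0.116) on day 5 and 0.465 (0.249 to 0.820) on day 7, with 55 and 110 UMIs on day 5 and 16 and 57 on day 7. Stfa2 was at 8.52, 2.46, 1.94 and 1.44 on these days. Chil3 was at 22.5 (18.8 to 27.1) on day 3, 0.928 (0.661 to 1.33) on day 5 and 3.31 (2.82 to 3.90) on day 7. Cd177 was at 2.28 (1.88 to 2.78) on day 3, 2.51 (1.37 to 5.13) on day 5 and, with 24 and 39 UMIs, 1.02 on day 7. Ltf, at 0.429 (0.325 to 0.563), and Camp, at 0.262 with 22 and 57 UMIs, were lower on day 3. Of the 90 genes that were higher in neutrophil-like cells on day 1, 81 had enough UMIs on day 3 and 60 of them (74.1%) were above 1, against 55.6% of all genes. On day 5 this was 17 of 39 (43.6%, against 32.4%), above the share of all genes. On day 7 it was 16 of 43 (37.2%, against 35.0%), near that share. Of the 20 genes that were lower on day 1, 2 of 14 (14.3%, against 44.4% of all genes) were below 1 on day 3 and 3 were past 2-fold the other way. On day 5 10 of 15 (66.7%, against 67.6%) and on day 7 8 of 16 (50%, against 65.0%) were below 1. Il23a went from 0.408 on day 1 to 1.12 on day 3, 20.3 on day 5 and 6.66 on day 7. The control library of day 5 stood apart, with 28.6% of its barcodes removed by the filters against 1% to 10.8% in the other libraries, and a median of 8234 UMIs per cell kept. In neutrophil-like cells 21.98% of all genes were at least 2-fold lower on that day, and the part of this in the day 5 values was not tested. On day 5 the control library held 263 neutrophil-like cells and the diabetic library 1925, so the former value is thin, with 25 UMIs of Il23a on the control side.

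Of the 61 genes that were lower in monocyte-like cells on day 1, 38 had enough UMIs on day 3. Below 1 were 17 of these 38 (44.7%), against 51.9% of all genes. On day 5 it was 26 of 27 (96.3%), against 47.3%, with 613 diabetic and 105 control cells, and on day 7 9 of 12 (75%), against 54.0%, with 186 and 53. The genes lower on day 1 were thus not lower as a group on day 3, and were so again on day 5 among the fewer that had enough UMIs. Of the 38 genes that were higher on day 1, 12 of 26 (46.2%, against 48.1%) were above 1 on day 3 and 8 were past 2-fold the other way. Cd163, at 0.235 on day 1, was at 19.97 on day 3, while Ccl24 was at 0.514 and Lpl at 0.916.

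**Figure D5:**
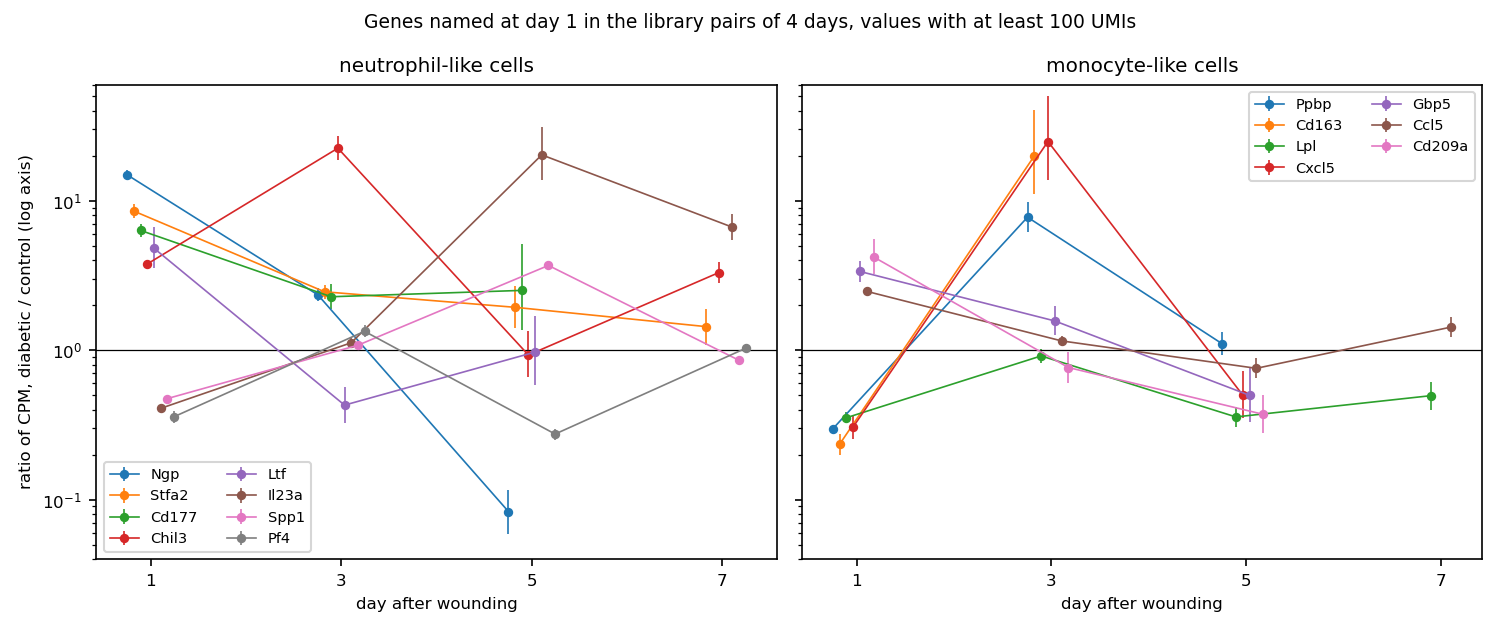
Ratio of CPM, diabetic over control (logarithmic axis), on days 1, 3, 5 and 7 for named genes in neutrophil-like and monocyte-like cells, where a gene had at least 100 UMIs over both libraries of the day. Ngp goes from 14.9 on day 1 to 2.35 on day 3 and below 1 on day 5, and Il23a from below 1 on day 1 to 20.3 on day 5.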

How the data were processed

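The counts were deposited by the authors as raw UMI counts per gene and cell, whole numbers with no normalization. Per the submitters' notes and the study's methods, reads were trimmed with fastp 0.20.1, and UMI-tools and STAR were named for barcodes and mapping. The labels name the build mm9 and the methods another Ensembl release, and the cell capture platform is given differently in both, so neither is settled here. In 1 label field the sorting marker runs from CD45 upwards by 1 per sample, and CD45 is taken for all.

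Members and gene lists were chosen with earlier results of these data known. The filter on barcodes asked for more than 200 genes and less than 20% of UMIs from the 13 mitochondrial genes, which were dropped afterwards. Log values, at 10000 UMIs per cell, of 2000 variable genes were reduced to 10 principal components and clustered over all 8 libraries (30 neighbours, Leiden resolution 0.8) with scanpy 1.11.5 in Python 3.11.15, with scikit-learn 1.9.0, leidenalg 0.10.2, pandas 2.3.3, igraph 0.11.9, scipy 1.17.1 and numpy 2.4.6. A cluster took the name of the markers with the highest mean log2 fold over other cells (20 CPM added), if at least 0.25 with 3 markers detected. These limits were not the whole rule. A cluster led by Gm26917 met them over all 8 libraries (0.3488) and in day 1 alone (0.8937) and was left without a name. Clusters of T and NK cells were clustered again together, a step chosen after the clusters were seen. In that step T cell-like names were given below 0.25 too, at mean log2 folds of -0.0822, -0.229 and -0.384 over all 8 libraries. Those clusters held 35, 6 and 6 cells of the diabetic and 43, 3 and 4 of the control library of day 1. In the 2 day 1 libraries 80.4% of cells had the same name by marker scores of single cells, and 732 cells had scores of their best classes within 0.1 of each other. Scrublet marked 0 cells of the diabetic and 2 (0.0453%) of the control library as doublets and so did not work, and doublets were kept.

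UMIs were summed per library and class, scaled to CPM, and compared as ratios with exact conditional binomial intervals, for genes with 100 UMIs over both libraries. The named genes were the 12 in each direction in all immune cells, and the 8 in each class, whose interval bound nearest to 1 was farthest from 1, without gene models and pseudogenes, and members of the lists and markers. 1 gene that this rule chose is not reported here. The ratio and interval code was checked on simulated data. Each alternative changed 1 choice: scaling, the UMI floor, weighting, thinning to 1000 UMIs, the gene filter, doublet scores, the clustering, the naming, and the mix of classes. Thinning also left out cells under 1000 UMIs, 14.4% of the diabetic and 9.68% of the control library. An equal mix of clusters and leaving out the 5 cells of a library with the most UMIs of a gene were added after seeing the data. Promoters came from RefSeq tables of GRCm38.p6. Figures were drawn with matplotlib 3.10.9.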

Additional observations from a re-analysis of the deposited data

Results flagged for a closer look

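Genes named on day 1 that were past 2-fold in the opposite direction on another day, with at least 100 UMIs over both libraries of that day, are given here as ratios of diabetic over control. The differences between days were not tested, since each is a comparison of 1 library with 1 library.

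In neutrophil-like cells Ngp was at 0.0833 on day 5, Retnla at 0.336 and Ltf at 0.429 on day 3. Without the 5 cells with most UMIs the day 1 ratio of Retnla was 0.689. It was seen in 12 diabetic and 16 control cells, so few UMIs were left and that value gives no direction. Il23a, lower on day 1, was at 20.3 on day 5 and 6.66 on day 7, and over all immune cells at 32.0 and 6.71. Ppbp was at 2.64 on day 3 in these cells and at 2.80 over all immune cells. Spp1 was at 3.69 on day 5, Ccl8 at 3.21 on day 7, and Cd163 at 14.1 on day 3 and 2.65 on day 7. The day 5 values set 1925 diabetic against 263 control neutrophil-like cells, and 28.6% of the barcodes of that control library were removed by the filters. On that day 21.98% of all genes in neutrophil-like cells were at least 2-fold lower.

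In monocyte-like cells 5 genes that were named as lower on day 1 were past 2-fold the other way on day 3, with Cxcl5 at 24.9, Cd163 at 19.97, Ppbp at 7.77, Ccl8 at 3.71 and Gas6 at 2.06, while Ccl24 was at 0.514 and Lpl at 0.916. Cd177 was at 0.357 on day 3, Cd209a at 0.372 and Gbp5 at 0.499 on day 5.

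Over all immune cells the fibroblast genes Dcn, at 0.0759 on day 5, and Col1a2, at 0.138 on day 3, 0.0493 on day 5 and 0.413 on day 7, were lower on later days. Ace was at 0.124 on day 3 and 0.393 on day 7. Higher on later days were Eomes at 17.1 on day 5, Ccl24 at 4.03 on day 7, and Dll4 at 5.45 on day 5 and 3.39 on day 7.

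In dendritic-like cells Il12b was at 0.299, Dll4 at 2.07 and Thy1 at 4.45 on day 5, and Mfge8 at 2.002 on day 3. Without the 5 cells with most UMIs the day 1 ratios of Thy1 and Mfge8 were 1.66 and 1.22. Thy1 was seen in only 8 diabetic and 6 control cells on day 1, and Mfge8 in 22 and 13. Few UMIs were left, so these values give no direction. In T cell-like cells Gzma was at 0.1001 and Cxcl3 at 4.71 on day 3, and on day 5 Ccl7 was at 0.0679, Ccl2 at 0.138, Plau at 0.306, Hspa1a at 0.418 and Zswim4 at 2.60. Without the 5 cells with most UMIs the day 1 ratio of Hspa1a was 0.401. It was seen in 7 diabetic and 9 control cells, so few UMIs were left and that value gives no direction. The day 1 ratios of Ccl7, Plau and Cxcl3 without such cells were 1.31, 1.46 and 0.970, within 2-fold.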

How the results depend on the processing

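No paired analysis was possible because each group had 1 library on a day, and for the same reason no replicate could be left out. Of 741 ratios of named genes under an alternative, 687 stayed past 2-fold in the same direction and 7 turned. Both the 741 and the 687 include 88 ratios without the UMI floor, a setting that cannot change the ratio of a named gene. Thinning gave only 31 ratios, those of genes that still had enough UMIs. Turned were Cxcl5 in neutrophil-like cells with the day 1 libraries clustered alone (9.28), Serpinb2 in T cell-like cells by the mean of single-cell CPM (1.01), and, without the 5 cells with most UMIs, Retnla in neutrophil-like (0.689), Thy1 and Mfge8 in dendritic-like (1.66 and 1.22) and Hspa1a and Serpinb2 in T cell-like cells (0.401 and 1.03). For the last setting the cause is its own construction, and for the others the cause was not tested. In the last setting those ratios rest on few UMIs, so a turn gives no direction for the gene. Of list medians relative to all genes, that of oxidative phosphorylation in neutrophil-like cells turned to -0.024 with the day 1 libraries clustered alone, and that of dendritic cell maturation to 0.094 with an equal mix of clusters. The granule list in neutrophil-like cells ranged from 0.657 to 0.880 over 10 alternatives and the interferon list in monocyte-like cells from 0.134 to 0.474.

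Counts of genes at least 2-fold higher and lower moved most without the UMI floor, which adds genes with few UMIs: 1099 and 816 in all immune cells, 1066 and 733 in neutrophil-like, 754 and 819 in monocyte-like, 1075 and 775 in dendritic-like and 1285 and 818 in T cell-like cells. Thinned to 1000 UMIs, with fewer genes at the floor, they were 37 and 14, 22 and 9, 14 and 13, 3 and 5, and 1 and 3 in the same order. The mean of single-cell CPM gave 179 and 66 in all immune cells, 97 and 156 in monocyte-like cells, and 61 lower in dendritic-like and 20 lower in T cell-like cells. Without the 5 cells with most UMIs there were 64 lower in all immune cells, 60 and 99 in monocyte-like cells, 188 higher in dendritic-like cells, and 61 and 31 in T cell-like cells. Naming by marker scores gave 11 lower in neutrophil-like cells, the median ratio 8 lower in T cell-like cells, and an equal mix of clusters 12 lower in dendritic-like cells. Except for thinning and the floor, the cause was not tested.

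By marker scores, neutrophil-like cells were 46.9% of the diabetic and 53.0% of the control library and monocyte-like cells 28.9% and 23.5%. Clustered alone, the day 1 libraries had 31.3% and 26.1% monocyte-like and 7.00% and 3.90% dendritic-like cells. Over 500 genes, the diabetic library had 53.7% neutrophil-like and 5.02% dendritic-like cells. The order of the groups was the same in each of these.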

Other observations

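Over all immune cells 1.02% of genes were at least 2-fold higher and 0.361% lower, 57.6% were above 1 and the median log2 ratio was 0.04, so a count of 0 past 2-fold in a list of this size is near that of all genes. Of 29 immediate early genes, such as Fos and Jun, 0 were past 2-fold over all immune cells and 15 were above 1, and the median log2 ratio was 0.00. Genes of MHC class I and the immunoproteasome had 0 of 19 past 2-fold and a median of 0.06, and genes known to respond to glucose or insulin had 0 of 16 past 2-fold and a median of 0.04. Of 18 genes of apoptosis and survival 0 were past 2-fold.

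Lipid-handling genes had 1 of 22 past 2-fold over all immune cells (Lpl), 5 above 1 and a median log2 ratio of -0.24. Metallothionein and antioxidant genes had 5 of 22 above 1 and a median of -0.11. Of all genes in this population 57.6% were above 1. The skin mast cell gene Mcpt4 had 3979 UMIs in the diabetic and 1552 in the control library, a ratio of 2.53 (2.39 to 2.69), with 23 and 25 mast cell-like cells. Cells left without a name were 3.51% of the diabetic and 1.995% of the control library.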
